A study of Rattus norvegicus with 6 samples.

Results

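The genes described here are 10 markers of injury and repair of the kidney tubule, chosen by name. They are Havcr1, Lcn2, Spp1, Clu, Cd44, Vim, Krt8, Krt18, Sox9 and Cdkn1a. Rows of the deposited tables were matched to 9 of the 10 by gene symbol, and these 9 were among the 11553 genes tested of 17051 listed. No row was matched to Sox9, which is not analysed here.

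A damaged tubule cell loses its brush border, spreads over the bared basement membrane and may divide to replace its neighbors. During this repair the cell turns on proteins that the resting proximal tubule hardly makes, such as the phagocytic receptor KIM-1 (Havcr1), the iron-carrier lipocalin NGAL (Lcn2), vimentin and the simple-epithelium keratins. Several of the same genes are active in the healthy kidney outside the proximal tubule, with osteopontin and the keratins in the loop of Henle and collecting duct and vimentin in vessels, mesangium and podocytes. In RNA of a whole tissue piece, fewer cells of a type and less RNA per cell cannot be told apart.

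Kidney RNA came from 6 male Sprague Dawley rats, 3 in each group, after 7 days of diet. The AL group (rats 61, 71 and 88; "normal diet" in the labels) ate standard chow ad libitum, and the HD group (rats 64, 67 and 69; "hyperammonemic diet") had such chow mixed with 3 g of amino acids per kg and day in the proportions of hemoglobin. The diet models a raised ammonia load in rats with an intact liver, the age of the rats is not given in the sources used here, and the labels name no kidney region. The poly(A)-selected libraries held between 12499945 and 30466461 estimated counts, the largest being that of rat 69. Levels below are CPM, counts scaled to a common library size with TMM normalization, unless TPM, which also corrects for transcript length, is named.

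None of the 9 tested markers was called different between the diets. In the quasi-likelihood test of edgeR, adjusted by Benjamini-Hochberg over all tested genes, 0 of the 9 reached the threshold of 0.05, against 0% of all tested genes. At an unadjusted P value below 0.05 the count was again 0 of 9, against 10.6% of all tested genes (4.66% higher and 5.94% lower in the HD group). DESeq2 also placed 0 of the 9 past its adjusted threshold, which 1.58% of all genes passed. The values of the groups overlapped in all 9 genes, whereas 14.3% of all tested genes had groups that did not overlap (7.25% with every HD rat above and 7.01% with every HD rat below the AL rats). By the sign of the log2 fold change alone, 7 of the 9 genes had lower levels in HD rats, where 48.7% of all tested genes were lower and 51.3% higher. The median log2 fold change was -0.16 over the 9 genes and 0.0067 over all tested genes.

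**Figure D1:**
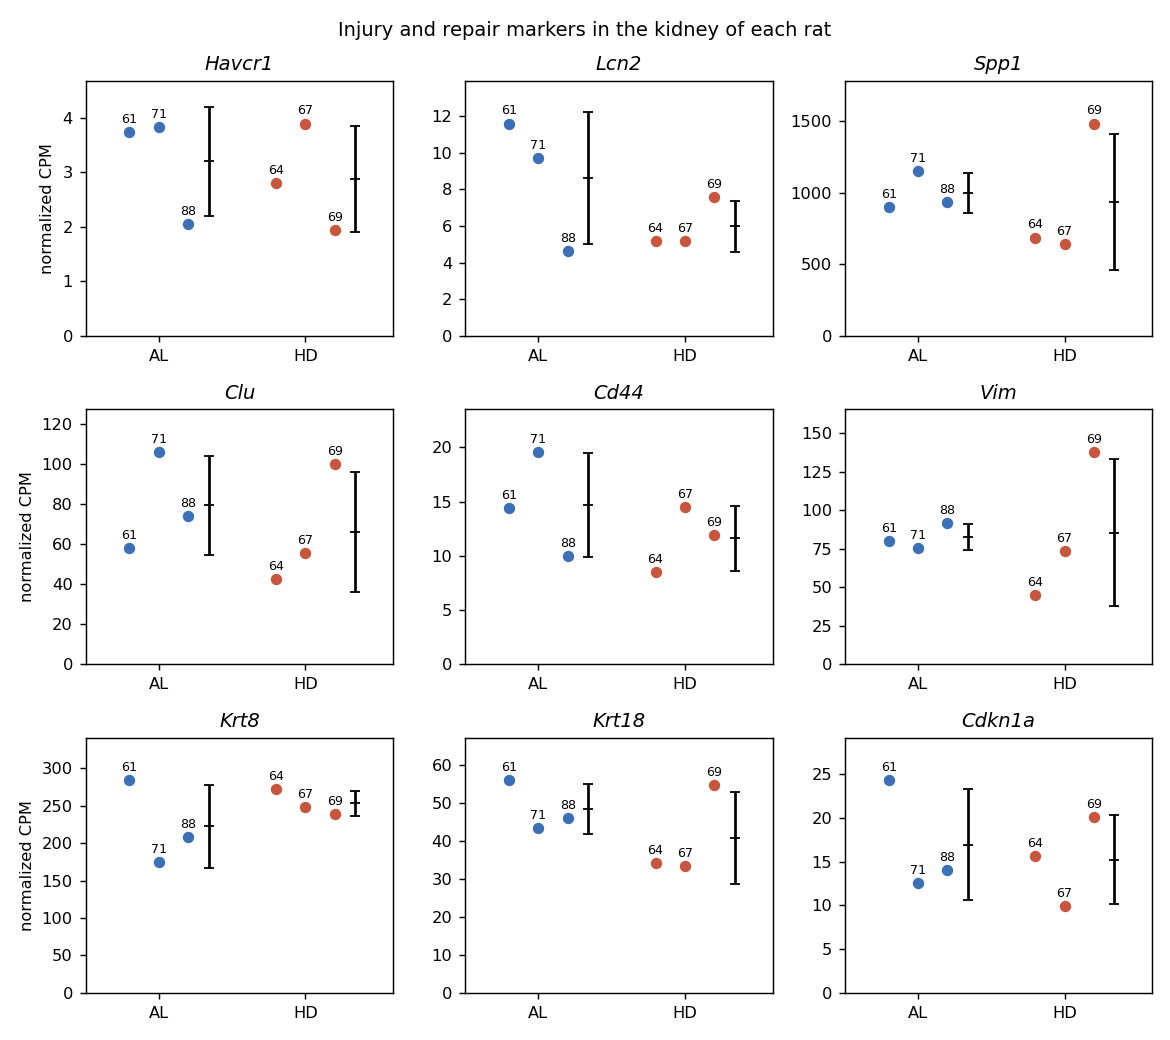
Normalized CPM of the 9 markers in each rat, with blue points for the AL group, red points for the HD group, the rat number above each point and the mean with its SD in black (n = 3). The groups overlap in every panel, and rat 69 is the highest HD rat in 6 of the 9 panels (Lcn2, Spp1, Clu, Vim, Krt18 and Cdkn1a).

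The markers covered a wide range of levels. Per transcript length, Spp1 was the most abundant, with a mean of 1042 TPM over the 6 rats, at or above 98.5% of all tested genes. Krt8 followed with 222 TPM, then Vim with 74.0, Clu with 62.5, Krt18 with 51.9, Lcn2 with 13.7, Cdkn1a with 13.5, Cd44 with 5.12 and Havcr1 with 1.87 TPM. The order of Spp1 above Krt8, of Krt8 above Vim, of Krt18 above Lcn2, of Cdkn1a above Cd44 and of Cd44 above Havcr1 held in 6 of 6 rats. Neighbors that changed places between rats were Vim and Clu (Vim higher in 5 of 6 rats), Clu and Krt18 (Clu higher in 4 of 6) and Lcn2 and Cdkn1a (Lcn2 higher in 3 of 6). Havcr1 thus lay lowest in each rat, at or above only 11% of the tested genes by its mean.

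Havcr1 encodes KIM-1, a surface receptor that lets injured proximal tubule cells engulf dying neighbors and that is shed into the urine. It lies on chromosome 10 of rn5 (31644784 to 31668189, plus strand, 8 exons in the listed transcript). AL rats 61, 71 and 88 had 3.73, 3.82 and 2.05 CPM, and HD rats 64, 67 and 69 had 2.80, 3.90 and 1.95 CPM. The highest and the lowest rat both belonged to the HD group. The means were 3.20 ± 0.998 CPM in the AL and 2.88 ± 0.976 CPM in the HD group (SD, 3 rats each). The log2 fold change was -0.16 (standard error, SE, 0.39, 95% interval -1.06 to 0.75, adjusted P = 0.936). These levels rested on 31 to 78 reads per rat, for which counting error alone was between 11.3% and 18.0% of a rat's value. Among the TIM family relatives, Timd2 was at 42.7 ± 8.44 and 44.6 ± 15.8 CPM in the AL and HD groups (SD, 3 rats each), Havcr2 had at most 10 reads in a rat and was not tested, and Timd4 was not analysed here.

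Lcn2 encodes NGAL, a secreted lipocalin that binds iron-carrying siderophores and is made by the distal nephron after injury and by neutrophils. The gene lies on chromosome 3 (16763059 to 16766404, minus strand, 6 exons). Rats 61, 71 and 88 of the AL group had 11.6, 9.70 and 4.63 CPM, and rats 64, 67 and 69 of the HD group had 5.18, 5.20 and 7.61 CPM. All 3 HD rats lay below rats 61 and 71, and all 3 lay above rat 88. The log2 fold change was -0.52 (SE 0.36, 95% interval -1.36 to 0.32, adjusted P = 0.673), the farthest from 0 among the 9 genes. Without rat 88 the log2 fold change of Lcn2 was -0.81, with an unadjusted P value of 0.024 and an adjusted P value of 0.917. Without rat 61 it was -0.25, with an unadjusted P value of 0.52, and was then nearer to 0 than that of Clu (-0.44). The lipocalin receptor gene Slc22a17 was level between the group means, with 43.3 CPM in the AL and 43.2 CPM in the HD group.

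Spp1 encodes osteopontin, a phosphoprotein of bone matrix and urine that binds integrins and CD44. It lies on chromosome 14 (6653086 to 6658937, minus strand, 7 exons). The AL rats 61, 71 and 88 had 898, 1156 and 937 CPM. The HD rats 64, 67 and 69 had 688, 641 and 1485 CPM. Thus 2 HD rats were below every AL rat and rat 69 was above every AL rat. The means were 997 ± 139 and 938 ± 474 CPM (SD, 3 rats each), and the log2 fold change was -0.09 (SE 0.32, 95% interval -0.85 to 0.67, adjusted P = 0.962). Clu encodes clusterin, a secreted chaperone that coats misfolded proteins and cell debris. On chromosome 15 (48926521 to 48965757, minus strand, 10 exons), it had 57.9, 106 and 74.1 CPM in AL rats 61, 71 and 88 and 42.5, 55.8 and 99.9 CPM in HD rats 64, 67 and 69. Here too, rats 64 and 67 were below every AL rat, while rat 69 lay between the AL rats. The log2 fold change of Clu was -0.26 (SE 0.34, 95% interval -1.06 to 0.54, adjusted P = 0.851).

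Cd44 encodes the cell surface receptor for hyaluronan, which also binds osteopontin and appears on regenerating tubule cells and on leukocytes. It lies on chromosome 3 (99339457 to 99426032, minus strand), where its single listed transcript has 20 exons, so splice variants were not told apart. Rats 61, 71 and 88 had 14.4, 19.6 and 9.99 CPM, and rats 64, 67 and 69 had 8.49, 14.5 and 11.9 CPM. Rats 67 and 69 lay within the AL range and rat 64 below it. The log2 fold change was -0.33 (SE 0.29, 95% interval -1.02 to 0.36, adjusted P = 0.756). It was -0.06 without rat 71 and -0.54 without rat 88.

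Of the 3 filament genes, Vim and Krt18 lay below every AL rat in rats 64 and 67, and Krt8 did not. Vim encodes vimentin, the intermediate filament of mesenchymal cells and of dedifferentiated tubule cells, on chromosome 17 (82500898 to 82509383, plus strand, 9 exons). Its level was 80.1, 75.6 and 91.8 CPM in rats 61, 71 and 88 and 44.9, 73.5 and 138 CPM in rats 64, 67 and 69. The 3 AL rats lay close together, and the HD rats reached below and above them, with a highest-to-lowest ratio of 3.07 in the HD and 1.21 in the AL group. The means of Vim were 82.5 ± 8.36 and 85.4 ± 47.6 CPM (SD, 3 rats each), and its log2 fold change of 0.06 (SE 0.36, 95% interval -0.78 to 0.89, adjusted P = 0.977) took the opposite sign with library size alone (-0.0012) and on log2(TPM + 1) values (-0.16).

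Krt8 and Krt18 encode the type II and type I keratins that pair to form the filaments of simple epithelia. They are neighbors on chromosome 7 of rn5, Krt8 on the minus strand (141393004 to 141400457, 9 exons) and Krt18 on the plus strand (141425684 to 141429360, 7 exons), with 25226 bases and 0 listed transcript starts between them. Since the pair is read in opposite directions, the 250 bases before each RefSeq start (build GRCr8) are shown 5′ to 3′, with capitals for matches to a TATA box (TATAAA) or a GC box (GGGCGG) on either strand.
Krt8, chr7:135010340-135010589, minus strand: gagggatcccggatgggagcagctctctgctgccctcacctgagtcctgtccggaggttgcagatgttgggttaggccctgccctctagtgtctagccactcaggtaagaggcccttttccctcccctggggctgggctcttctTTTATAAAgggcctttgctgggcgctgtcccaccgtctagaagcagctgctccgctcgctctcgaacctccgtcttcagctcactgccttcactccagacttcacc
Krt18, chr7:135035918-135036167, plus strand: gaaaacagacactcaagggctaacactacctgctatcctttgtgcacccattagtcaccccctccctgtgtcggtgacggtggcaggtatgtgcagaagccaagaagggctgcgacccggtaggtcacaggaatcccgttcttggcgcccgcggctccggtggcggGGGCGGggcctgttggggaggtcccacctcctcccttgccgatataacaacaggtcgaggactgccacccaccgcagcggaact
In Krt8 the capitals cover overlapping TATA box matches on both strands and no GC box, and in Krt18 they cover a GC box and no TATA box. Windows of this length were held for 8 of the 10 markers, not for Clu and Sox9. A TATA box match was found in 3 of the 8 (Spp1, Vim and Krt8) against 12.9% of 33469 promoters, and a GC box match in 2 of the 8 (Vim and Krt18) against 30.5%. The CCAAT box (CCAAT) was matched in 1 of the 8, Vim, against 34.0% of promoters, and the AP-1 motif (TGACTCA) in 0 of the 8 against 4.05%. These are letter matches in a short window and not measured binding.

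Krt8 was the marker with the smallest spread in the HD group. It had 284, 175 and 209 CPM in AL rats 61, 71 and 88 and 272, 248 and 239 CPM in HD rats 64, 67 and 69. All 3 HD rats were above rats 71 and 88 and below rat 61. The means were 222 ± 55.8 and 253 ± 16.9 CPM (SD, 3 rats each), with a log2 fold change of 0.19 (SE 0.18, 95% interval -0.24 to 0.61, adjusted P = 0.785). Without rat 61 it was 0.40, with an unadjusted P value of 0.022 and an adjusted P value of 0.259, and without rat 71 it was 0.04. Krt18 had 55.9, 43.5 and 46.1 CPM in the AL rats and 34.3, 33.4 and 54.8 CPM in the HD rats, in the same order of rats. Rats 64 and 67 were below every AL rat in Krt18, and rat 69 was second only to rat 61. Its log2 fold change was -0.24 (SE 0.21, 95% interval -0.74 to 0.26, adjusted P = 0.752).

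The ratio of Krt8 to Krt18, in TPM, was therefore compared as well, a measure chosen after the values of both genes were seen. It was 4.14, 3.27 and 3.69 in AL rats 61, 71 and 88 and 6.46, 6.05 and 3.56 in HD rats 64, 67 and 69. Rats 64 and 67 stood above all AL rats, and rat 69 lay among them. The mean ratio was 3.70 ± 0.433 in the AL and 5.36 ± 1.57 in the HD group (SD, 3 rats each), a difference that did not pass a two-sided exact permutation test (P = 0.3, where 3 against 3 rats cannot give less than 0.1).

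Cdkn1a encodes p21, the cyclin-dependent kinase inhibitor that p53 induces and that halts damaged tubule cells in the cell cycle. It lies on chromosome 20 (8592437 to 8602879, plus strand, 4 exons). The AL rats 61, 71 and 88 had 24.3, 12.5 and 14.1 CPM and the HD rats 64, 67 and 69 had 15.6, 9.99 and 20.1 CPM. Rats 64 and 69 lay between rat 61 and the other AL rats, and rat 67 was the lowest of all. The log2 fold change was -0.15 (SE 0.33, 95% interval -0.92 to 0.63, adjusted P = 0.926), and without rat 61 it was 0.20.

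**Figure D2:**
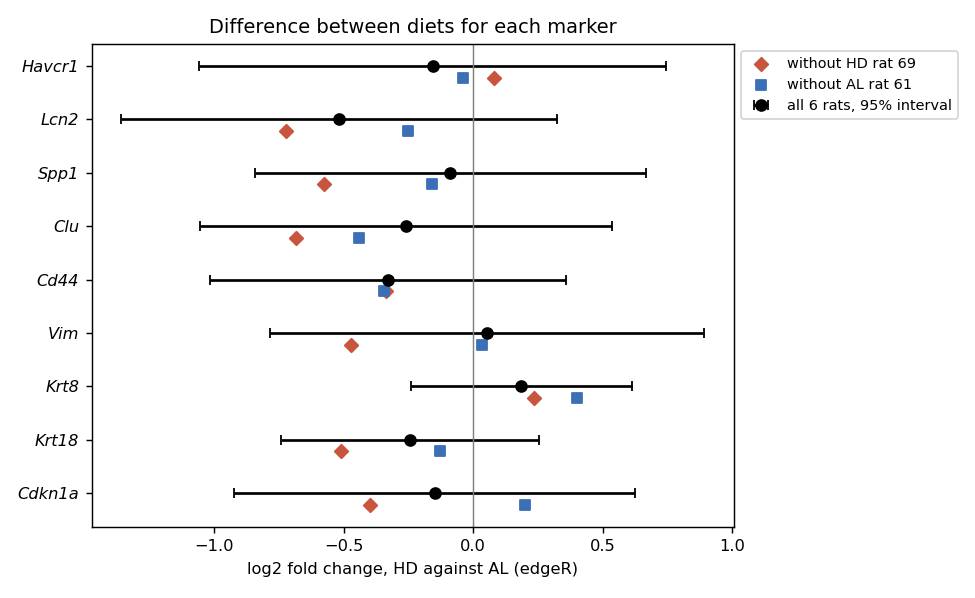
Log2 fold change (HD against AL) of each marker from edgeR with its 95% interval (black, all 6 rats), and the estimate without HD rat 69 (red diamonds) or without AL rat 61 (blue squares). All 9 intervals include 0, and leaving out rat 69 takes Spp1 from -0.09 to -0.58 and Vim from 0.06 to -0.47.

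Two-sided exact permutation tests over the 6 rats on log2(CPM + 0.5) gave P values between 0.3 (Krt18) and 0.8 (Vim and Cdkn1a) for the 9 genes, none at the smallest value of 0.1 that the design allows. The 95% intervals from the edgeR fit, in contrast, show how large a difference these rats leave room for. They were narrowest for Krt8 and Krt18 and widest for Havcr1. The upper ends, between 0.26 for Krt18 and 0.89 for Vim, lay below a doubling (a log2 fold change of 1) in all 9 genes, while the lower ends reached -1.36 for Lcn2.

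The HD rats did not form a uniform group for Spp1, Clu, Vim and Krt18. In each of these 4 genes rats 64 and 67 were below all AL rats. Rat 69 was above every AL rat for Spp1 and Vim and within the AL range for Clu and Krt18. The SD of the log2 level within the HD group was 0.67, 0.63, 0.81 and 0.40, against a median of 0.20 over all tested genes. Within the AL group the SD of the log2 level was 0.19 for Spp1, 0.44 for Clu, 0.14 for Vim and 0.19 for Krt18. Without rat 69 the log2 fold changes were -0.58 for Spp1, -0.68 for Clu, -0.47 for Vim and -0.51 for Krt18, with adjusted P values of 0.210, 0.296, 0.362 and 0.214. In that fit 3 of the 9 markers (Spp1, Clu and Krt18) and 15.5% of all tested genes had an unadjusted P value below 0.05. The 4 genes were grouped by these same values of rats 64, 67 and 69, so lower HD levels without rat 69 follow from that choice. The fit describes the values and is no separate test of them.

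Within the HD group, every cell type list except the proximal tubule summed higher in rat 69 than in rats 64 and 67. The 6 thick ascending limb genes, led by Umod and Slc12a1, summed to 2485 TPM in rat 64, 2726 in rat 67 and 4168 in rat 69, and to between 3610 and 4196 TPM in the AL rats. In Slc12a1, the 1 gene of the 6 without overlap, HD rats 64, 67 and 69 had 676, 1043 and 1563 CPM. AL rats 61, 71 and 88 had 2518, 1745 and 1704 CPM (adjusted P = 0.409 from edgeR and 0.110 from DESeq2). The 8 endothelial genes summed to 68.9, 103 and 231 TPM in rats 64, 67 and 69 and to between 93.2 and 248 TPM in the AL rats. For the 10 genes of fibroblasts, pericytes and smooth muscle the sums were 89.9, 125 and 335 TPM in the same HD rats and between 131 and 380 TPM in the AL rats. By these sums rat 69 lay within the range of the AL rats and above the other HD rats in all 3 lists. AL rat 61, with the lowest sums of its group in all 3 lists, was the lowest AL rat for Spp1 and Clu and not for Vim or Krt18. In rats 64, 67 and 69 the collecting duct list summed to 1721, 1373 and 1837 TPM and the urothelial list to 33.1, 41.0 and 96.0 TPM. The podocyte list gave 140, 183 and 313 TPM and the leukocyte list 303, 232 and 539 TPM. The proximal tubule list went the other way, with 21016, 20354 and 16718 TPM. The part of these cell types in the levels of Spp1, Clu, Vim and Krt18 was not tested. None of the markers in these lists was at 0 in all rats.

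**Figure D3:**
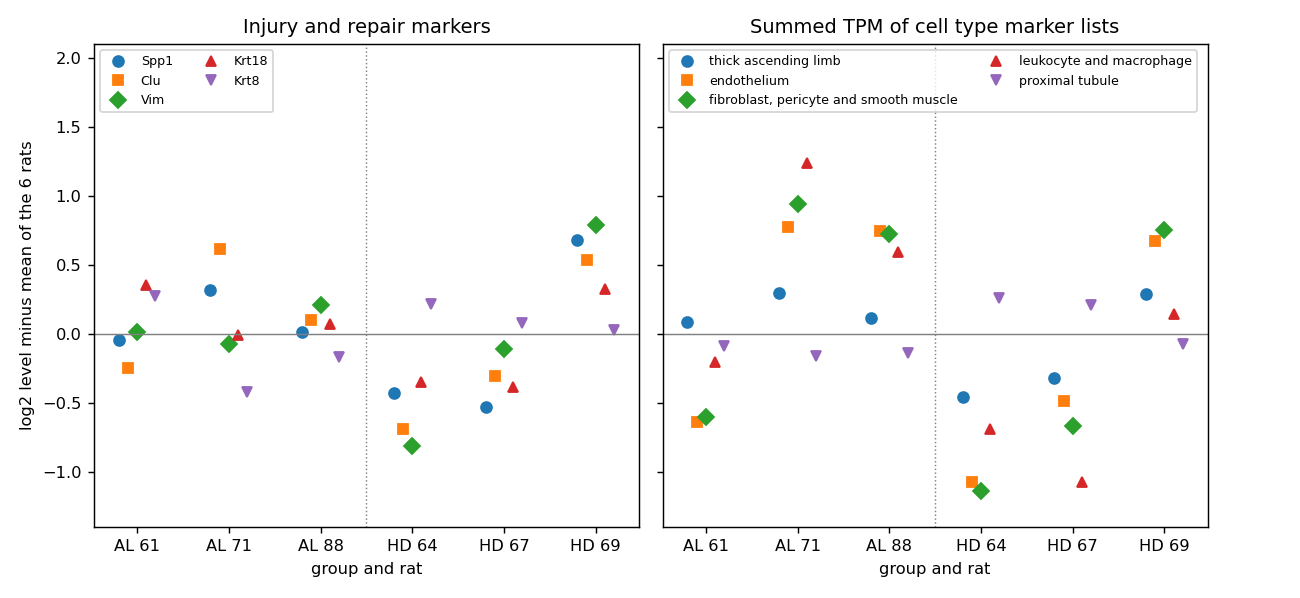
Left, log2(CPM + 0.5) of 5 markers in each rat after subtraction of the mean over the 6 rats; right, the same for log2 summed TPM of 5 cell type lists, with rats along the horizontal axis and the groups divided by the dotted line. Spp1, Clu, Vim and Krt18 are lowest in rats 64 and 67 and higher in rat 69. The thick ascending limb, endothelial, fibroblast and leukocyte lists are also higher in rat 69 than in rats 64 and 67, and Krt8 and the proximal tubule list are lower.

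The lists for the proximal tubule, podocytes and leukocytes were placed beside the markers as well. The 15 proximal tubule genes with a row summed to between 15682 and 16505 TPM in the AL and between 16718 and 21016 TPM in the HD group, with every HD rat above every AL rat. Of its 14 tested genes 12 were higher in the HD group, among them the transporter genes Slc13a3 (466 ± 34.8 and 822 ± 180 CPM) and Slc22a6 (263 ± 46.9 and 554 ± 169 CPM; SD, 3 rats each), with adjusted P values of 0.368 for both from edgeR and of 0.00415 and 0.00302 from DESeq2. The 9 podocyte genes summed to between 30.4 and 89.8 TPM in the AL and between 140 and 313 TPM in the HD group, again without overlap, and 9 of 9 were higher in the HD group. Vim is known from podocytes as well. The 13 leukocyte and macrophage genes were lower in the HD group in 13 of 13 cases, with sums of 425 to 1152 TPM in the AL and 232 to 539 TPM in the HD group. These sums overlapped, since HD rat 69 (539 TPM) was above AL rat 61 (425 TPM). Lcn2 and Cd44 are known from leukocytes, and the part of these cells in their levels was not tested. The sums of the remaining lists also overlapped between the groups. Over all rats they were 1373 to 2081 TPM for the 10 collecting duct genes and 28.9 to 96.0 TPM for the 6 urothelial genes. Among the 10 collecting duct genes, 2 were higher and 5 lower in the HD group at an unadjusted edgeR P value below 0.05. Of all tested genes, 4.66% were higher and 5.94% lower at that value. DESeq2 gave adjusted P values of 0.0359 for Hsd11b2 (higher) and 0.0151 for Fxyd4 (lower).

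The neighborhood of the markers was described with 8 lists of genes around injury and repair. Of their 148 genes, 138 had a row and 120 were tested. No gene of the lists reached an adjusted P value of 0.05 in edgeR, and the smallest was 0.327. At an unadjusted P value below 0.05, 8 had higher and 6 lower fitted levels in HD rats. Together these were 14 of 120 against 10.6% of all tested genes, so the share was near that of the background. The count was 8 without rat 88 or rat 64, where 5.24% and 5.54% of all tested genes passed. It was 24 without rat 69, where 15.5% passed. Every HD rat was above every AL rat in 13 of the 120 and below in 4, against 7.25% and 7.01% of all tested genes. DESeq2 placed 3 higher and 3 lower genes of the 120 past its adjusted threshold, which 1.58% of all tested genes passed. These 6 are Nes, Areg, Sesn2, Vcam1, Cd24 and Cp, of which Vcam1 and Cp were named after their values were seen.

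Among 37 tested genes of injury and maladaptive repair, 12 had higher and 25 lower fitted levels in HD rats, and the median log2 fold change was -0.38 (-0.0021 without rat 61). Areg, the gene of the epidermal growth factor receptor ligand amphiregulin, had 4.05, 2.22 and 3.04 CPM in AL rats 61, 71 and 88 and 25.6, 8.14 and 11.6 CPM in HD rats 64, 67 and 69. Every HD rat was above every AL rat, and the log2 fold change was 2.28 (SE 0.47, adjusted P = 0.352 from edgeR and 0.000496 from DESeq2). Cd24, which encodes a surface glycoprotein of tubule progenitor-like cells, was at 487 ± 35.0 CPM in the AL and 353 ± 27.9 CPM in the HD group (SD, 3 rats each; adjusted P = 0.392 from edgeR and 0.0159 from DESeq2). Vcam1, a leukocyte adhesion molecule also found on tubule cells that fail to recover, had means of 21.6 and 8.45 CPM (adjusted P = 0.398 from edgeR and 0.0272 from DESeq2). In the leukocyte list 13 of 13 tested genes were lower in the HD group, against 48.7% of all tested genes. Their median log2 fold change was -1.41. The sums of that list overlapped between the groups, and the part of leukocytes in the level of Vcam1 was not tested. Cp, the gene of the ferroxidase ceruloplasmin, had means of 61.8 and 17.2 CPM (adjusted P = 0.398 from edgeR and 0.0104 from DESeq2). The cell cycle arrest markers Timp2 and Igfbp7, which are measured together in urine, had log2 fold changes of -0.24 and -0.43. Their adjusted P values were 0.804 and 0.406 from edgeR and 0.905 and 0.0845 from DESeq2. For Igfbp7 every HD rat was below every AL rat, as in 7.01% of all tested genes, and for Timp2 the groups overlapped.

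Of 12 tested filament and plaque genes other than the markers, 3 had higher and 9 lower fitted levels in HD rats, and the median log2 fold change was -0.25 (-0.69 without rat 69). Nes, which encodes nestin, an intermediate filament of podocytes and progenitor cells, was at 18.8 ± 7.88 and 55.2 ± 24.1 CPM (SD, 3 rats each), with a log2 fold change of 1.55 (SE 0.37, adjusted P = 0.368 from edgeR and 0.00480 from DESeq2), and every HD rat was above every AL rat. The sums of the podocyte list did not overlap between the groups either, and their part in the level of Nes was not tested. Ppl, the gene of the plaque protein periplakin, was at 58.4 ± 6.59 and 38.1 ± 13.2 CPM (SD, 3 rats each; adjusted P = 0.431 from edgeR). Krt19, a further keratin of the collecting duct, had means of 85.2 and 58.2 CPM (adjusted P = 0.642).

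For 9 tested binding partners of osteopontin and CD44 the median log2 fold change was -0.04 (-0.12 without rat 61 and -0.16 without rat 69), with 3 higher and 6 lower. Msn, which encodes the membrane-cytoskeleton linker moesin that binds CD44, was at 116 ± 34.7 and 162 ± 5.42 CPM, and its relative Ezr, the gene of ezrin, at 442 ± 81.3 and 513 ± 75.5 CPM (SD, 3 rats each), with adjusted P values of 0.473 and 0.735. The hyaluronan synthase genes Has1, Has2 and Has3 had at most 15 reads in any rat and were not tested. Among 5 tested genes of lipocalin and clusterin receptors and relatives, Vldlr (13.5 ± 3.84 and 17.8 ± 3.62 CPM; SD, 3 rats each) and the megalin gene Lrp2 (2084 ± 256 and 2378 ± 260 CPM; SD, 3 rats each) had the smallest P values, with adjusted values of 0.639 and 0.739.

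Around Cdkn1a, 17 of 24 tested p53 targets and cell cycle inhibitors had higher and 7 lower fitted levels in HD rats, and the median log2 fold change was 0.09 (0.03 without rat 61 and 0.0048 with library size alone). Sesn2, which encodes a stress-induced inhibitor of mTORC1 signaling, had 30.7, 30.8 and 30.2 CPM in the AL rats and 57.9, 46.8 and 45.7 CPM in the HD rats. Its log2 fold change was 0.71 (SE 0.12, adjusted P = 0.327 from edgeR and 0.00352 from DESeq2), without overlap between the groups. Gadd45a, a growth arrest gene, was at 155 ± 33.2 and 244 ± 71.5 CPM (SD, 3 rats each; adjusted P = 0.409). The p53 gene itself and its targets Mdm2, Ccng1 and Bax had log2 fold changes of 0.02, 0.06, 0.10 and -0.15. Cdkn2a, a marker of senescence, had at most 1 read in any rat.

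Of 19 tested proliferation genes, 16 had higher and 3 lower fitted levels in HD rats, and the median log2 fold change was 0.42 (0.28 without rat 61). Rrm2, a ribonucleotide reductase subunit, was at 7.52 ± 1.02 and 13.8 ± 4.26 CPM, and cyclin B1 (Ccnb1) at 3.0 ± 0.671 and 5.37 ± 1.67 CPM (SD, 3 rats each), with adjusted P values of 0.406 and 0.435. In both genes every HD rat was above every AL rat. Mki67, the gene of the Ki-67 antigen, had means of 12 and 14.2 CPM (adjusted P = 0.857). For 13 tested SOX and progenitor factors, with relatives of Sox9 among them, the median log2 fold change was 0.03 (-0.04 without rat 61, -0.03 without rat 69 and -0.06 with library size alone), with 8 higher and 5 lower. The smallest P values there belonged to Sox6 (3.88 ± 0.502 and 5.85 ± 0.745 CPM, adjusted P = 0.455) and Wwtr1, the gene of the Hippo pathway coactivator TAZ (18.7 ± 1.56 and 22.3 ± 2.33 CPM, adjusted P = 0.572; SD, 3 rats each).

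**Figure D4:**
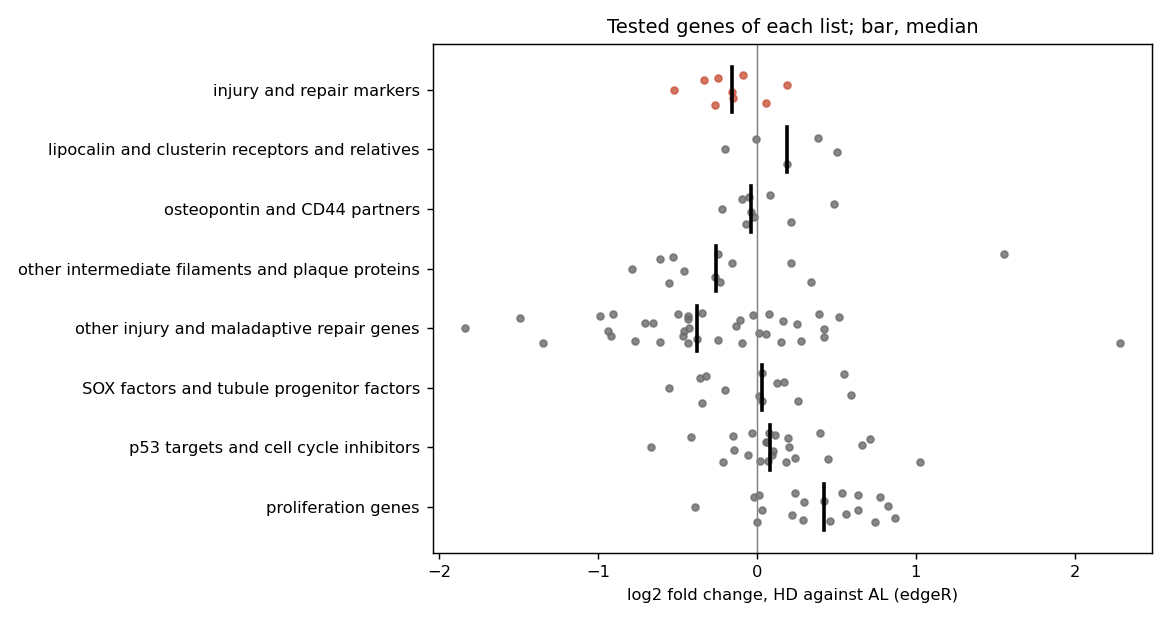
Log2 fold change (HD against AL, edgeR) of every tested gene of the injury and repair markers (red) and of 7 surrounding lists (grey), with a black bar at each median. The 9 markers lie between -0.52 and 0.19, inside the range of the surrounding lists as a whole, whose medians run from -0.38 for injury and maladaptive repair to 0.42 for proliferation.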

How the data were processed

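Kidney RNA of 3 AL and 3 HD rats was sequenced in single-end reads, 1 library per rat. The authors quantified transcripts with RSEM 1.1.15 (UCSC gene definitions, build rn5) and deposited an estimated count (expected count) per transcript, its posterior mean and TPM values. Read filters are not given in the sources used here.

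The estimated counts were summed per gene symbol and rounded, and genes with at least 30 counts in at least 1 rat were tested. The diet named in the labels set the groups. The diets were compared by edgeR 4.0.16 (R 4.3.3), quasi-likelihood test, TMM, diet as the only factor, Benjamini-Hochberg adjustment over all tested genes, threshold 0.05. Standard errors were the log2 fold change divided by the square root of F, and 95% intervals used the fit's t quantile. DESeq2 1.42.0, the tool of the paper's methods, and limma 3.58.1 on log2(TPM + 1) were alternatives. These tools and edgeR were run on simulated counts whose planted differences were larger than those of the markers. Detection of smaller differences was not checked. Likeness of genes was the root mean square difference of centred log2(CPM + 0.5).

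Pairs of libraries differed beyond sampling noise (chi-square per degree of freedom 24.2 to 80.0). The labels number rats without stating cages or batches. No genome sequence was used, and promoters are from RefSeq.

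The markers and lists were chosen with earlier results of these data known. Genes named are the 10 markers, the 2 genes of each list with the smallest P values, the 2 genes most like each marker, and others said to be chosen later or given as known relatives.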

Additional observations from a re-analysis of the deposited data

How the results depend on the processing

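No marker passed an adjusted P value of 0.05 under any of the 14 alternatives, 8 in processing and 6 that each left out 1 rat. The number of all tested genes past it was 0 in edgeR, 182 with DESeq2 and 2 with a minimum count above 0 in 1 rat, and ranged from 0 to 4 with each rat left out. The 14 surrounding genes at an unadjusted P value below 0.05 became 8 to 24 with each rat left out (8 without rat 88 or rat 64, 24 without rat 69). The share of all tested genes moved in the same direction, with 5.24% without rat 88, 5.54% without rat 64 and 15.5% without rat 69. The median log2 fold change of the markers ranged from -0.47 to -0.0065 with each rat left out and from -0.26 to -0.14 otherwise.

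The sign turned in 11 marker results and stayed in 115. Vim turned to -0.0012 with library size alone and -0.16 with limma on TPM. With each rat left out, the log2 fold change ranged from -0.58 to 0.12 for Spp1 (above 0 without rat 71, 64 or 67), from -0.47 to 0.36 for Vim (below 0 without rat 71 or 69), from -0.40 to 0.20 for Cdkn1a (above 0 without rat 61 or 67), from -0.68 to 0.0041 for Clu (above 0 without rat 71) and from -0.45 to 0.079 for Havcr1 (above 0 without rat 69). The sign held for Lcn2 (-0.81 to -0.25), Cd44 (-0.54 to -0.06), Krt8 (0.04 to 0.40) and Krt18 (-0.51 to -0.12). Unadjusted P values below 0.05 came in 3 of these fits, for Lcn2 without rat 88, Krt8 without rat 61, and Spp1, Clu and Krt18 without rat 69. The cause was not tested. Counting error was highest for Havcr1, at 11.3% to 18.0% of a value. No paired analysis was possible because the labels give the groups no shared number.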

Other observations

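The genes whose levels followed each marker most closely over the 6 rats were picked from all tested genes as the 2 with the smallest root mean square difference in centred log2 level, so small differences are partly a product of that choice. For Clu they were Lbp, the gene of the lipopolysaccharide-binding protein (0.040), and Fam69b (0.087). For Krt18 they were Agpat5 (0.069) and the thick ascending limb gene Egf (0.080), and for Krt8 they were Pold4 (0.037) and Srm (0.043). Spp1 was followed by Adamtsl5 (0.094) and the epithelial protease gene St14 (0.094), and Vim by P2rx4 (0.11) and Micb (0.12). The nearest genes were Exo5 (0.094) and Zbtb12 (0.099) for Havcr1, Fscn2 (0.18) and Kcnn2 (0.19) for Lcn2, Zfp192 (0.11) and Ptgds (0.13) for Cd44, and Lrfn4 (0.13) and Shroom3 (0.14) for Cdkn1a.

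Among the markers themselves, Spp1 and Clu were each other's nearest (0.22), as were Cdkn1a and Krt18 (0.25) and Havcr1 and Cd44 (0.30). The nearest marker to Krt8 was Cdkn1a (0.36), and 6896 of the other tested genes lay closer to Krt8 than that, so the partner keratins were not neighbors in level over these rats.

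The highest of the 6 rats was rat 61 for 4 of the 9 markers, rat 71 for 2, rat 69 for 2 and rat 67 for 1. The lowest was rat 64 for 3 and rat 67 for 3, rat 71 for 1, rat 88 for 1 and rat 69 for 1. Over all tested genes, rat 64 was the lowest in 21.1% and rat 67 in 10.4%.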
